A study of Mus musculus with 12 samples.

Results

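The 10 genes described here encode chaperones and proteases of the mitochondrion and were taken by name: Hspd1, Hspe1, Hspa9, Dnaja3, Trap1, Lonp1, Clpp, Clpx, Yme1l1 and Afg3l2. All 10 were present among the 14159 genes listed for inguinal white adipose tissue (iWAT), a subcutaneous fat depot of the mouse. RNA-seq was performed on 12 iWAT libraries, 3 biological replicates in each of 4 groups: Atf4WT at room temperature (RT), Atf4AKO at RT, Atf4WT after 24 h of cold, and Atf4AKO after 24 h of cold. Atf4AKO mice lack ATF4, the main transcription factor of the integrated stress response, in adipocytes, because a Cre under the Adipoq (adiponectin) promoter deletes a floxed Atf4. The Atf4WT mice were littermates that carried the floxed Atf4 alleles, and all animals were on a C57BL/6 background. The deletion is limited to cells that use the Adipoq promoter, whereas polyA RNA came from the whole depot, so other cells of the tissue keep Atf4. The labels give neither age nor sex.

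Most mitochondrial proteins are made in the cytosol, imported as unfolded chains, and then folded and later degraded inside the organelle. The matrix Hsp70 (Hspa9) pulls in and holds the chains with its J-domain partner Dnaja3, the Hsp60 and Hsp10 rings (Hspd1 and Hspe1) enclose them while they fold, and Trap1 is the mitochondrial Hsp90. Lonp1 and the pair Clpp and Clpx degrade proteins of the matrix, while Yme1l1 and Afg3l2 are ATP-driven proteases of the inner membrane. In thermogenic fat these factors serve a mitochondrial network that expands when beige adipocytes form, and several of them are used as readouts of the mitochondrial unfolded protein response, in which ATF4, ATF5 and CHOP (Ddit3) are known regulators.

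The promoters are shown first because Hspd1 and Hspe1, the subunits of a single folding machine, have neighbouring starts on chromosome 1. Of the start sites listed for Hspd1, one (55087932) lies 216 bases before that of Hspe1 (55088148), head to head with it, and another (55088243) lies 95 bases past the Hspe1 start, so that transcription from it passes over the start of Hspe1 on the opposite strand. RefSeq sequence of 250 bases before to 50 bases after each start (build GRCm38.p6) was found for 8 of the 10 genes, without Hspa9 and Afg3l2. Both strands of the windows were searched for short motifs of stress and mitochondrial regulators, and each stretch of 30 bases below is written 5′ to 3′ on the strand of the gene named, with the motif in capitals.
Hspe1, heat shock elements, chr1:55088053-55088082, + strand: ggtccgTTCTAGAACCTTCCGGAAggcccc
Hspe1, ERR element, chr1:55088088-55088117, + strand: tcccgtgggtgaAAGGTCAagtggcgtcat
Hspe1, CHOP element, chr1:55087937-55087966, + strand: acgccggggcccTGCAATCtgcatgcggcg
Clpp, heat shock element, chr17:56990284-56990313, + strand: ccgggtgttgtagTTCCGGAAgccaagccg
Lonp1, CRE-like element, chr17:56626892-56626921, - strand: gcgagcagagaTGACGTAAgtgcggtgcgc
Trap1, CRE, chr16:4077839-4077868, - strand: gtcgcgcgccaTGACGTCActgagccgccc
Trap1, ERR element, chr16:4077936-4077965, - strand: tcactgagatccAAGGTCAaaaagtacagt
Dnaja3, NRF1 site, chr16:4684012-4684041, + strand: ggagaccgagGCGCGTGCGCaatgcttacg

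The heat shock element was searched as TTCNNGAA or GAANNTTC, and the shared Hspd1 and Hspe1 promoter held a block of 18 bases made of overlapping matches to both forms, 89 bases before the Hspe1 start. The same stretch, read on the other strand, lies in the window of the first Hspd1 start, and the ERR and CHOP elements shown for Hspe1 are likewise single sites that both genes' windows hold. Matches of this length are frequent: 15.1% of all 32851 promoter windows held a heat shock element, and here the shared Hspd1 and Hspe1 block and the Clpp window did. The ERR element AAGGTCA, the site of the estrogen-related receptors that drive mitochondrial genes, was in the shared Hspd1 and Hspe1 stretch and in the Trap1 window, and 4.72% of all windows held it. The CHOP element GATTGCA was in the shared Hspd1 and Hspe1 stretch (2.02% of all), the cAMP response element TGACGTCA in that of Trap1 (1.79%), and the related TGACGTAA in that of Lonp1 (0.499%). The site of NRF1, a regulator of nuclear genes for the respiratory chain, was found for Dnaja3 and in the window of the second Hspd1 start (4.6%), and the C/EBP-ATF element TGATGNAA, the kind of composite site that ATF4 binds, for 0 of the 8 genes (3.97% of all windows). The matches describe letters within these windows and were not tested for binding.

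The targeted gene was read first. Atf4 normalized counts were 5669, 4670 and 4107 in Atf4WT at RT and 1594, 1470 and 1639 in Atf4AKO at RT. After cold they were 7644, 7511 and 5756 in Atf4WT and 1578, 788 and 1180 in Atf4AKO, so every Atf4AKO library lay below every Atf4WT library. Ucp1, the uncoupling protein of thermogenic fat, ranged from 204 to 1097 in the 6 RT libraries and from 73632 to 119558 in the 6 cold libraries. Between 25719476 and 29105147 reads per library fell on listed genes, and the lowest count of any of the 10 genes in a library was 1694 reads. Libraries stood apart in other cell types: the summed level of 8 B cell markers was 3521 to 11808 in Atf4WT cold, 68 to 321 in Atf4AKO cold and 3432 in replicate 2 of Atf4WT RT, against 91 and 110 in the other Atf4WT RT libraries. The 8 T cell markers summed to 742 to 5637 in Atf4WT cold and 161 to 394 in Atf4AKO cold. The 5 listed skeletal muscle markers reached 72928 in replicate 2 of Atf4WT RT, 25920 in replicate 0 of Atf4WT cold and 2789 in replicate 1 of Atf4AKO cold, and at most 821 elsewhere. Adipocyte markers were abundant in every library (summed level of 8 genes 700024 to 1189497). In whole-tissue RNA, fewer cells of a type and less RNA per cell cannot be told apart.

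Cold was compared with RT within each genotype to see which parts of the machinery moved during the first day of browning. In both genotypes the same 7 genes rose: the Hsp60 and Hsp10 folding pair, Hspa9 and its partner Dnaja3, the protease pair Clpp and Clpx, and the inner membrane protease Afg3l2. The fold changes of these genes ran from 1.27 to 2.05 in Atf4WT and from 1.42 to 2.06 in Atf4AKO. Trap1, Lonp1 and Yme1l1 did not pass the test in either genotype. The test was limma on log2(normalized count + 1) with 3 libraries a group, Benjamini-Hochberg adjusted over 13404 genes, and a gene was called at an adjusted p under 0.05. Of all genes tested, 17% were called higher after cold in Atf4WT and 14.8% in Atf4AKO, beside 7 of the 10 here in each. For each of these 7 genes, every cold library was above every RT library of its genotype, which held for 23.9% of all genes in Atf4WT and 21.7% in Atf4AKO. The rule of the study, a fold over 1.5 with an unadjusted p under 0.05, was applied here to the limma values. By it, 5 of the 10 genes were higher in Atf4WT (10.9% of all genes) and 6 in Atf4AKO (8.3%). The median log2 fold change over the 10 genes was 0.60 in Atf4WT and 0.66 in Atf4AKO, and over all genes 0.003 and -0.03. B and T cell markers were higher after cold in Atf4WT, and with a lymphocyte score as a covariate (the mean log2 value of the 16 markers) the median was 0.94 in Atf4WT and 0.60 in Atf4AKO. Over all genes that fit gave medians of -0.02 and -0.03. The same 7 genes were then called in each genotype, with Clpx at 0.66 and Clpp at 0.91 in Atf4WT, over 1.5 times their values without the score. In Atf4WT the score was 3.82 to 7.28 at RT, highest in replicate 2, and 7.39 to 9.78 after cold. These ranges do not overlap, so the lymphocyte signal and cold cannot be told apart in Atf4WT. Without the Atf4WT libraries with the most muscle reads (RT replicate 2 and cold replicate 0, left out after the data were seen), 5 genes remained called in Atf4WT, and Clpp (log2 fold change 0.43, limma adjusted p = 0.06) and Clpx (0.26, adjusted p = 0.173) were not. The shares of all genes called were not counted with the score or without these libraries, so the 17% and 14.8% do not apply to those fits.

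**Figure D1:**
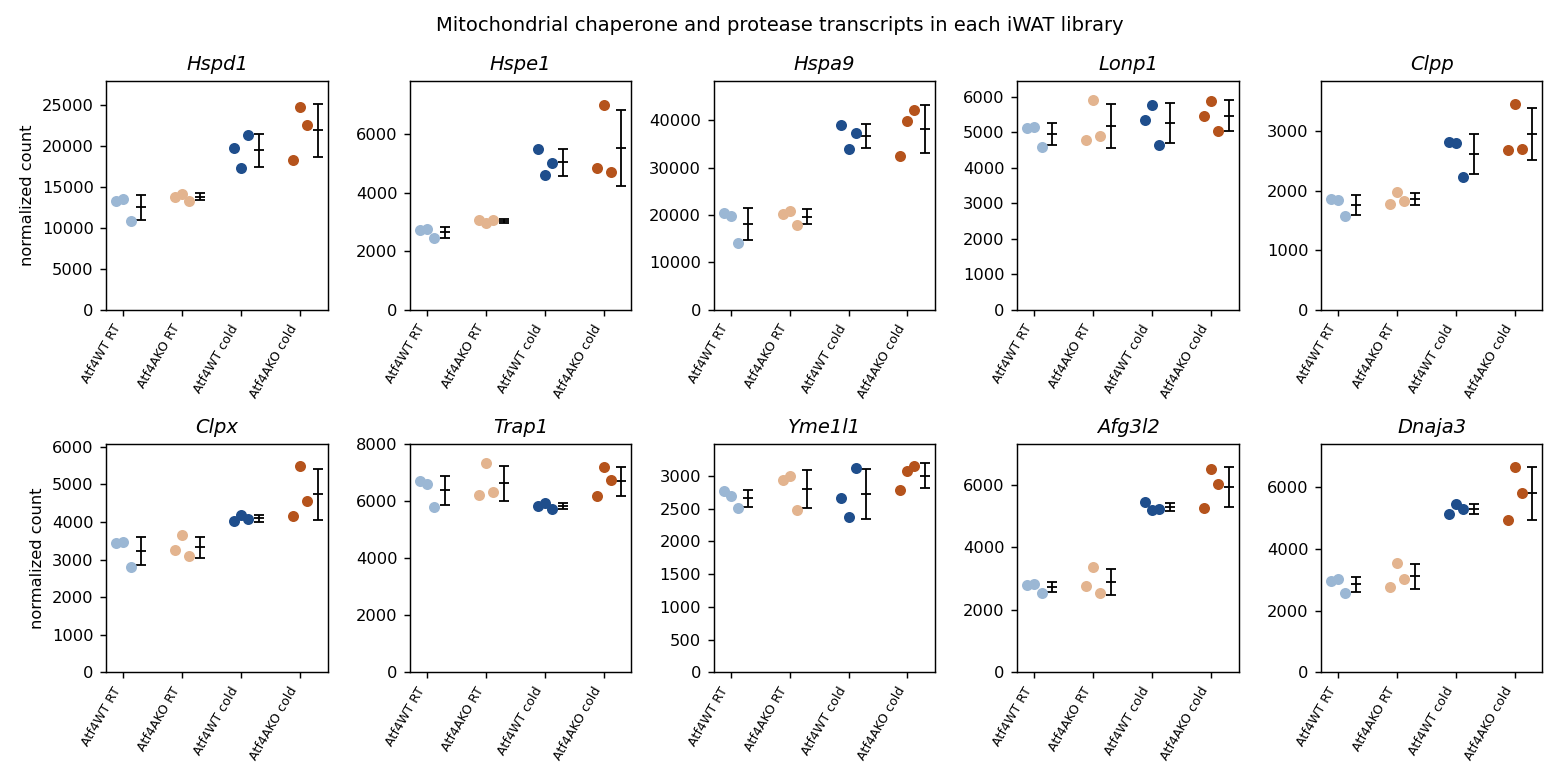
Normalized counts (vertical axes, each from 0) of the 10 genes in each of the 12 iWAT libraries, by group, with points for libraries and black bars for the mean ± SD of 3 libraries. The cold libraries of Hspd1, Hspe1, Hspa9, Clpp, Clpx, Afg3l2 and Dnaja3 lie above the RT libraries of the same genotype, whereas those of Lonp1, Trap1 and Yme1l1 overlap them.

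Hspd1 encodes Hsp60, the subunit of the folding chamber. Its normalized counts were 13273, 13447 and 10766 in Atf4WT at RT and 19691, 17294 and 21273 after cold. In Atf4AKO they were 13800, 14155 and 13291 at RT and 18304, 24676 and 22575 after cold. The cold libraries were above the RT libraries throughout. The fold change was 1.56 in Atf4WT (log2 0.64 ± 0.13 SE, adjusted p = 0.00439) and 1.58 in Atf4AKO (0.66 ± 0.13, adjusted p = 0.00452). Hspe1 encodes Hsp10, the lid of that chamber. It had 2730, 2754 and 2442 normalized counts in Atf4WT at RT and 5505, 4599 and 5018 after cold. The Atf4AKO values were 3068, 2972 and 3077 at RT and 4842, 7012 and 4719 after cold, where replicate 1 stood well above the others. The fold change of Hspe1 was 1.91 in Atf4WT (log2 0.93 ± 0.14, adjusted p = 0.000731) and 1.79 in Atf4AKO (0.84 ± 0.14, adjusted p = 0.00153). The annotated exons of both genes share 112 bases on opposite strands. The library kit keeps strand, but the stated counting parameters name no strand setting, so reads in the shared bases cannot be assigned to either gene with certainty. Processed copies exist for both genes (5 named for Hspd1 and 6 for Hspe1 in GENCODE), and since the counting kept uniquely mapped reads, reads shared with them may be missing.

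Hspa9, the matrix Hsp70 also called mortalin, showed 20473, 19701 and 14181 normalized counts in Atf4WT at RT and 38886, 33927 and 37266 after cold. In Atf4AKO it went from 20234, 20896 and 17868 to 32509, 39870 and 42185. The fold change was 2.05 in Atf4WT, the highest estimate of the 10 genes there (log2 1.03 ± 0.15, adjusted p = 0.000805), and 1.93 in Atf4AKO (0.95 ± 0.15, adjusted p = 0.00153). Dnaja3, which stimulates the ATPase of Hspa9, had 2966, 3031 and 2588 normalized counts in Atf4WT at RT and 5127, 5445 and 5309 after cold. Its Atf4AKO libraries held 2754, 3559 and 3024 at RT and 4955, 6662 and 5806 after cold. The cold groups did not overlap the RT groups, with a fold change of 1.85 in Atf4WT (log2 0.89 ± 0.12, adjusted p = 0.000523) and 1.86 in Atf4AKO (0.90 ± 0.12, adjusted p = 0.000555). Exons of Dnaja3 overlap those of Coro7 and Vasn over 313 bases, and those of Trap1 overlap Dnase1 over 54 bases. For Hspa9 1 copy is named in GENCODE.

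Trap1, the Hsp90 of the matrix, was the chaperone of the 10 genes that did not pass the test. Its 6 Atf4WT libraries held 6727, 6610 and 5804 at RT and 5848, 5951 and 5715 after cold, and its Atf4AKO libraries held 6238, 7344 and 6320 at RT and 6181, 7203 and 6731 after cold. The ranges overlapped in both genotypes. The log2 difference between cold and RT was -0.13 in Atf4WT (95% interval -0.32 to 0.07, adjusted p = 0.314) and 0.02 in Atf4AKO (-0.18 to 0.22, adjusted p = 0.909). The sign in Atf4AKO turned to -0.04 when libraries were scaled to the same 75th percentile.

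Among the matrix proteases, Clpp, the proteolytic chamber, rose with cold. Its normalized counts were 1865, 1839 and 1571 in Atf4WT at RT and 2819, 2806 and 2226 after cold, and 1782, 1968 and 1830 in Atf4AKO at RT and 2681, 3459 and 2703 after cold. The fold change was 1.48 in Atf4WT (log2 0.57 ± 0.12, adjusted p = 0.00607) and 1.57 in Atf4AKO (0.66 ± 0.12, adjusted p = 0.00356). Clpx, the unfoldase that feeds Clpp, was also called. It had 3431, 3461 and 2802 in Atf4WT at RT and 4015, 4191 and 4079 after cold, and 3241, 3640 and 3100 in Atf4AKO at RT and 4160, 5494 and 4549 after cold. The fold change of Clpx was 1.27 in Atf4WT (log2 0.35 ± 0.12, adjusted p = 0.038) and 1.42 in Atf4AKO (0.50 ± 0.12, adjusted p = 0.00895). The Clpx call in Atf4WT was lost when any of 6 single libraries was left out, 5 of Atf4WT (RT replicates 0 and 2, and all 3 of cold) and RT replicate 0 of Atf4AKO. The adjusted p was then 0.0512 to 0.131 and the log2 fold change 0.25 to 0.40, lowest without Atf4WT RT replicate 2.

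Lonp1, the other ATP-dependent protease of the matrix, did not pass the test. It had 5117, 5163 and 4590 normalized counts in Atf4WT at RT and 5360, 5770 and 4656 after cold, and 4774, 5906 and 4889 in Atf4AKO at RT and 5469, 5901 and 5030 after cold. Of the Atf4WT cold libraries, replicates 0 and 1 lay above the RT range and replicate 2 within it, while all Atf4AKO cold libraries lay within theirs. The log2 difference was 0.08 in Atf4WT (95% interval -0.16 to 0.32, adjusted p = 0.59) and 0.08 in Atf4AKO (-0.16 to 0.32, adjusted p = 0.625). In this fit of group means, a change of the size seen for Clpp lay outside both intervals. With the lymphocyte score as a covariate Lonp1 had 0.31 in Atf4WT (95% interval -0.042 to 0.655), and Clpp had 0.91.

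Of the inner membrane proteases, Afg3l2 was called after cold and Yme1l1 was not. Afg3l2, a subunit of the m-AAA protease that faces the matrix, had 2800, 2816 and 2540 normalized counts in Atf4WT at RT and 5440, 5182 and 5219 after cold. In Atf4AKO it had 2760, 3353 and 2533 at RT and 5247, 6510 and 6008 after cold. These groups were far apart, and the fold change was 1.94 in Atf4WT (log2 0.96 ± 0.11, adjusted p = 0.000179) and 2.06 in Atf4AKO (1.04 ± 0.11, adjusted p = 0.00013), the lowest adjusted p of the 10 genes in each genotype. Yme1l1, the i-AAA protease that faces the intermembrane space, had 2761, 2696 and 2508 in Atf4WT at RT and 2668, 2367 and 3121 after cold, and 2941, 3003 and 2471 in Atf4AKO at RT and 2787, 3072 and 3143 after cold. Its RT and cold libraries overlapped, with log2 differences of 0.03 (95% interval -0.21 to 0.27, adjusted p = 0.879) and 0.10 (-0.14 to 0.34, adjusted p = 0.525).

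**Figure D2:**
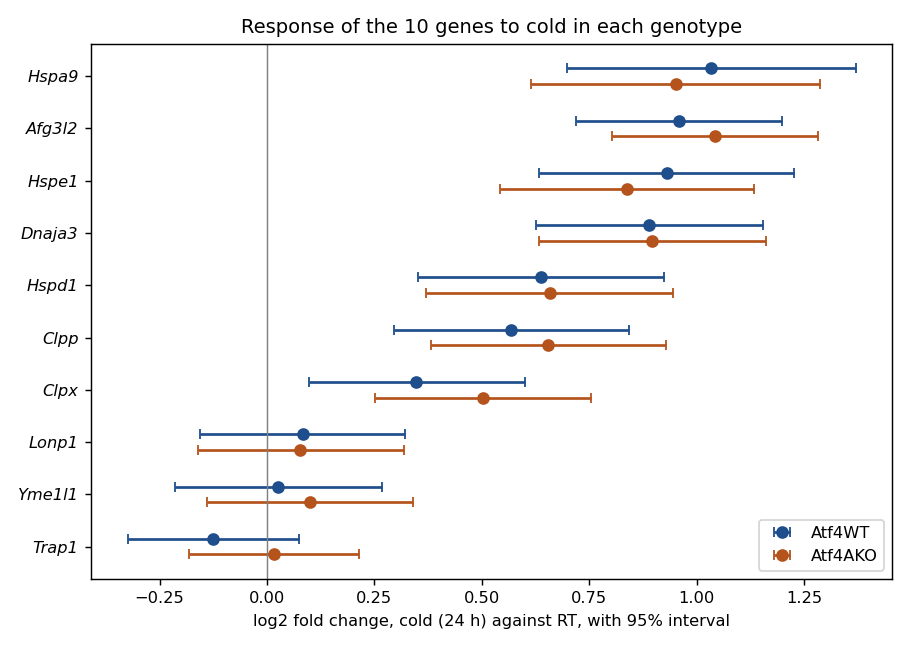
Log2 fold change of normalized counts between 24 h cold and RT (horizontal axis) for each of the 10 genes (rows), in Atf4WT (blue) and Atf4AKO (orange), with bars for 95% intervals from limma over 3 libraries a group. The intervals of Hspa9, Afg3l2, Hspe1, Dnaja3, Hspd1, Clpp and Clpx lie above 0 in both genotypes, and those of Lonp1, Yme1l1 and Trap1 span 0.

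Ratios between genes of the same library do not depend on how libraries were scaled. The pairs below were chosen after their values were seen and carry no test. The ratio of Afg3l2 to Yme1l1 normalized counts was 1.01, 1.04 and 1.01 in Atf4WT at RT and 2.04, 2.19 and 1.67 after cold, and in Atf4AKO 0.938, 1.12 and 1.02 at RT and 1.88, 2.12 and 1.91 after cold. Counts of both transcripts were thus near equal at RT, and those of Afg3l2 were higher after cold in all 6 cold libraries. The ratio of Hspa9 to Trap1 was 2.44 to 3.24 over the 6 RT libraries and 5.26 to 6.65 over the 6 cold libraries. Clpp to Lonp1 went from 0.333 to 0.374 at RT to 0.478 to 0.586 after cold. The ratio of Hspd1 to Hspe1 moved the other way in mean, from 4.72 ± 0.27 (SD, n = 3) to 3.86 ± 0.34 in Atf4WT and from 4.53 ± 0.22 to 4.03 ± 0.67 in Atf4AKO, where the RT and cold libraries overlapped.

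**Figure D3:**
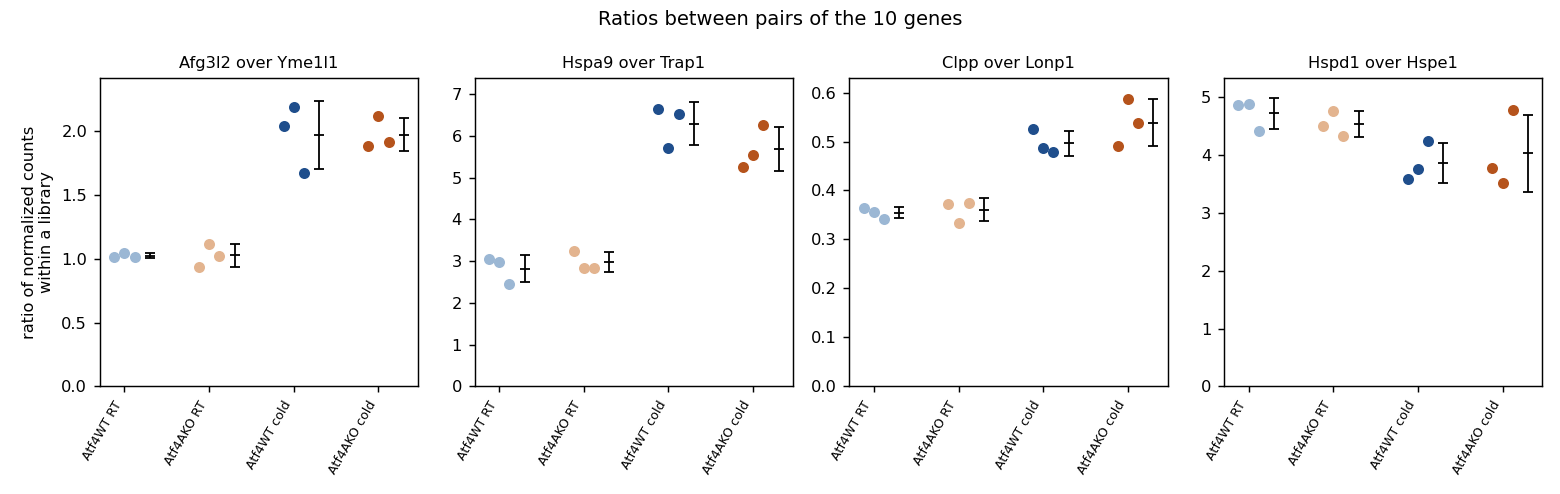
Ratio of normalized counts between 4 pairs of genes within a library (vertical axes, each from 0), by group, with points for the 12 libraries and black bars for the mean ± SD of 3. Afg3l2 over Yme1l1, Hspa9 over Trap1 and Clpp over Lonp1 are higher in all 6 cold libraries than in all 6 RT libraries, whereas Hspd1 over Hspe1 overlaps in Atf4AKO.

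Levels of different genes were compared per kilobase of transcript (GENCODE length of the listed RefSeq transcript, and for Hspd1 the longest protein-coding transcript, since its accession had no match). In Atf4WT at RT the order of mean normalized counts per kb was Hspa9 (5943, libraries 4651 to 6715), Hspd1 (5157, 4443 to 5550), Hspe1 (3413, 3155 to 3558), Trap1 (2750, 2502 to 2900), Clpp (1789, 1598 to 1897), Lonp1 (1680, 1555 to 1750), Clpx (1150, 998 to 1232), Dnaja3 (1142, 1033 to 1210), Afg3l2 (879, 821 to 910) and Yme1l1 (564, 533 to 587). Neighbours whose libraries overlapped were Hspa9 and Hspd1, Clpp and Lonp1, and Clpx and Dnaja3. After cold in Atf4WT the order was Hspa9 (12034, 11127 to 12754), Hspd1 (8015, 7138 to 8779), Hspe1 (6512, 5942 to 7112), Clpp (2662, 2265 to 2867), Trap1 (2516, 2464 to 2565), Dnaja3 (2113, 2047 to 2174), Lonp1 (1783, 1578 to 1955), Afg3l2 (1707, 1675 to 1758), Clpx (1458, 1430 to 1492) and Yme1l1 (578, 503 to 663). Clpp and Trap1, and Lonp1 and Afg3l2, were the neighbours that overlapped. Dnaja3 thus passed Lonp1 and Clpx after cold, Afg3l2 passed Clpx, and Hspa9 no longer overlapped Hspd1. Yme1l1 was the least abundant per kb in all 4 groups.

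Atf4AKO was compared with Atf4WT at each temperature to see whether these transcripts differ without adipocyte ATF4. At RT 0 of the 10 genes passed the limma test (1 of all 13404 genes, 0.00746%), 0 had an unadjusted p under 0.05 (205 of all genes, 1.53%), and 0 passed the study's rule of a fold over 1.5 with an unadjusted p under 0.05 (0.463%). The deleted gene itself did not pass the limma test at RT (Atf4 log2 difference -1.61, adjusted p = 0.0762). Atf5 did not pass either (-0.68, limma adjusted p = 0.344), so a gene not called at RT may still differ. All 10 log2 differences were positive, from 0.05 to 0.20 with a median of 0.08, while 51.8% of all genes were positive. This lean was not particular to the 10 genes. Positive too were 16 of 16 cytosolic and 15 of 15 endoplasmic reticulum chaperones, and 10 of 12 mitochondrial co-chaperones. So were 13 of 14 other mitochondrial proteases and 73 of 82 oxidative phosphorylation subunits, but only 1 of 9 stress signalling genes. The highest of the 10 differences was that of Hspe1 (0.20, 95% interval -0.09 to 0.50), whose Atf4AKO libraries were all above the Atf4WT libraries, as for 3.32% of all genes. Replicate 2 of Atf4WT RT, the library with the most muscle and B cell marker reads of that group, was the lowest of the 3 for all 10 genes, and its part in these differences was not tested. Without it, 3 of the 10 differences were below 0 (Hspa9 -0.034, Clpx -0.054 and Trap1 -0.011), and that of Hspe1 was 0.15.

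After cold, again 0 of the 10 genes passed (4 of all genes, 0.0298%), 0 had an unadjusted p under 0.05 (1571 of all genes, 11.7%), and 0 passed the study's rule (6.4%). The log2 differences ran from 0.05 (Hspa9) to 0.20 (Clpx), with a median of 0.16 against 0.05 over all genes, and were positive for all 10 genes and for 59.3% of all genes. Positive too were 11 of 12 mitochondrial co-chaperones, 13 of 14 other mitochondrial proteases and 72 of 82 oxidative phosphorylation subunits. Of the cytosolic chaperones 14 of 16 were positive, of those of the endoplasmic reticulum 10 of 15, and of the stress signalling genes 2 of 9. Of the 10 genes, Trap1 had the lowest unadjusted p (0.0519 in limma, adjusted p = 0.431), with a log2 difference of 0.20 (95% interval -0.002 to 0.40) and all 3 Atf4AKO libraries above the Atf4WT libraries, as for 8.68% of genes. Over the 10 genes the 95% intervals reached from -0.29 to 0.45 on the log2 scale, so lower levels in Atf4AKO beyond 0.29 were outside all of them. This limit holds for the fit of group means. Replicate 1 of Atf4AKO cold was the highest of its group for 8 of the 10 genes, and its macrophage markers summed to 3619 against 19852 and 21102 in the other libraries of the group. Without it, the difference was -0.07 for Hspe1 and 0.07 for Hspd1, against 0.11 and 0.16 with it, and the other 8 ran from 0.001 (Lonp1) to 0.14 (Trap1). The B and T cell markers moved with the genotype in the cold: the mean log2 value of the 16 markers in a library was 7.39 to 9.78 in Atf4WT and 3.56 to 5.19 in Atf4AKO. With this score as a covariate 9 of the 10 differences turned negative (median -0.22, Yme1l1 0.01), while 45.9% of all genes were positive (median -0.03). That of Hspa9 was then -0.54 (95% interval -0.96 to -0.12, unadjusted p = 0.0175 in limma, adjusted p = 1), and 0 of the 10 genes passed. The score does not overlap between the genotypes after cold, so the lymphocyte signal and the genotype cannot be told apart there. Within Atf4WT the score stood apart in RT replicate 2 (7.28 against 4.13 and 3.82) and cold replicate 0 (7.39 against 9.33 and 9.78). These are also the Atf4WT libraries with the most muscle reads, so the covariate cannot be assigned to lymphocytes alone.

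**Figure D4:**
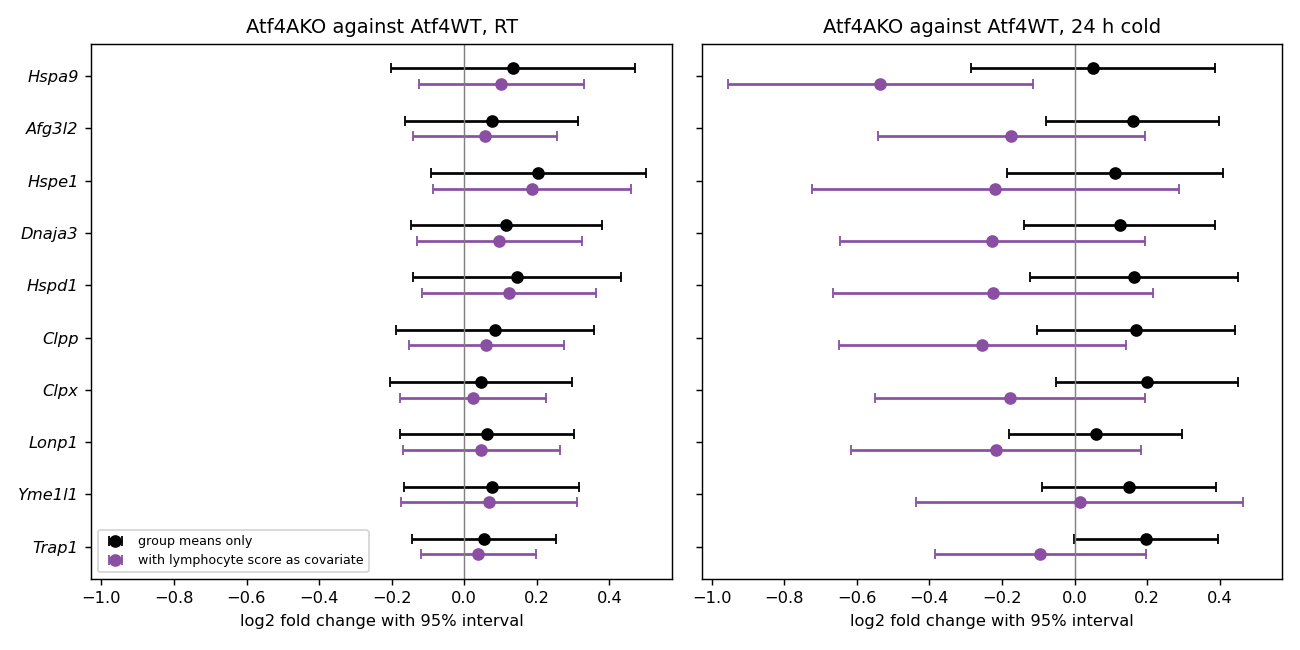
Log2 difference between Atf4AKO and Atf4WT (horizontal axis) for each of the 10 genes (rows) at RT (left) and after 24 h cold (right), with 95% intervals, from the fit of group means (black) and with the lymphocyte score as a covariate (purple). At RT both fits give values near 0, and after cold 9 of the 10 values lie below 0 with the covariate, with Hspa9 at -0.54. Over all genes 45.9% of the values after cold were positive with the covariate.

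Whether cold acted differently in the genotypes was tested directly as an interaction. None of the 10 genes passed in limma, nor with edgeR or DESeq2 on the recovered reads, and 0 had an unadjusted p under 0.05. Over all genes 0 passed (0%) and 928 had an unadjusted p under 0.05 (6.92%), and by the study's rule 0 of the 10 passed (4.63% of all genes). The cold response in Atf4AKO minus that in Atf4WT was -0.09 for Hspe1, -0.08 for Hspa9 and -0.004 for Lonp1, and positive for the other 7 (56.5% of all genes), up to 0.15 for Clpx, though those of Hspd1 and Dnaja3 were -0.016 and -0.028 after 75th percentile scaling. Without Atf4AKO cold replicate 1, that of Hspe1 was -0.28 and that of Hspa9 stayed negative. Those of Hspd1 (-0.07), Dnaja3 (-0.097), Clpp (-0.035) and Lonp1 (-0.06) were then negative too, and that of Clpx was 0.04. The intervals extended from -0.56 to 0.51 on the log2 scale, and all 10 differences were negative with the lymphocyte score as a covariate (-0.64 to -0.05, lowest unadjusted p = 0.0118 in limma, adjusted p = 0.935). In that covariate fit 46.6% of all genes were positive.

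Genes that work beside these 10 were read from wider lists. Of all 13404 genes, 2273 were called higher (17%) and 2000 lower after cold in Atf4WT. In Atf4AKO 1988 were called higher (14.8%) and 1479 lower. Of 12 listed mitochondrial co-chaperones and scaffolds, 6 were called higher and 1 lower after cold in Atf4WT, with a median log2 fold change of 0.36, and the same 7 genes were called in Atf4AKO, where the median was 0.38. Ppif, the matrix cyclophilin D, rose by 1.98 on the log2 scale in Atf4WT (adjusted p = 3.72e-05) and 1.89 in Atf4AKO (4.7e-05). The nucleotide exchange factors of Hspa9 rose too, Grpel1 by 1.06 and 1.09 (adjusted p = 0.000129 and 0.00013) and Grpel2 by 0.76 and 0.82 (0.000276 and 0.000212). The prohibitin Phb2, which scaffolds the inner membrane around the m-AAA protease, rose by 0.95 and 0.85 (0.000219 and 0.000481). The remaining calls, named after their values were seen, were Phb (0.77 and 0.84) and Stoml2 (0.49 and 0.47), which were higher, and Hscb, a J-domain protein of iron-sulfur cluster assembly (-0.61 and -0.55).

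Of 14 other mitochondrial proteases tested, 2 were called higher in Atf4WT and 3 in Atf4AKO, and 0 lower, with medians of 0.11 and 0.20. These counts of higher genes are near the shares over all genes (17% and 14.8%). Parl, the rhomboid protease of the inner membrane, rose by 0.45 and 0.58 (limma adjusted p = 0.00603 and 0.00204), and Immp1l, an inner membrane peptidase subunit, by 0.27 and 0.41 (0.0376 and 0.00639). The Immp1l call in Atf4WT was lost with the lymphocyte score as a covariate (0.42, adjusted p = 0.0598) and when RT replicate 0, RT replicate 2 or any cold replicate of Atf4WT was left out (0.23 to 0.30, adjusted p = 0.0502 to 0.109). A limma fit of the Atf4WT groups alone lost the Immp1l call too (adjusted p = 0.0544). Without both Atf4WT libraries with the most muscle reads, Parl had 0.33 in Atf4WT (adjusted p = 0.0617) and Immp1l 0.20 (0.223). Xpnpep3, named after its values were seen, had 0.35 in Atf4AKO (adjusted p = 0.0176) and 0.18 in Atf4WT (adjusted p = 0.15). Immp2l and Pitrm1 had log2 differences of -0.38 (adjusted p = 0.0543) and -0.25 (0.107) in Atf4WT and -0.35 (0.085) and -0.03 (0.861) in Atf4AKO.

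Of 9 tested genes of stress signalling and its targets, not all of them particular to mitochondria, 3 were called higher after cold in Atf4WT (Atf5, Ddit3 and Asns). In Atf4AKO 4 were called higher (with Dele1), and 0 were called lower in either genotype. Atf5, a transcription factor of the mitochondrial unfolded protein response, rose by 1.13 on the log2 scale in Atf4WT and 0.83 in Atf4AKO (adjusted p = 0.000106 and 0.000652). Its cold values were 10742, 10729 and 8372 in Atf4WT and 4447, 5739 and 4982 in Atf4AKO, a log2 difference of -0.97 between the genotypes (adjusted p = 0.0156). Atf4 and Atf5 were the genes of this list called between genotypes in the cold, Atf4 at -2.60 (adjusted p = 0.000644). With the lymphocyte score as a covariate these were -2.67 for Atf4 and -1.25 for Atf5 (adjusted p = 0.234 for both), and neither was called. Neither was called in a fit of the cold groups alone (adjusted p = 0.0598 for Atf4 and 0.109 for Atf5). The Atf5 call was also lost without Atf4WT cold replicate 1, Atf4AKO cold replicate 0 or Atf4AKO cold replicate 2 (log2 difference -0.97 to -0.89, adjusted p = 0.0518 to 0.132). The 10 chaperones and proteases had differences between 0.05 and 0.20 in the same comparison, and between -0.54 and 0.01 with the covariate. Ddit3, which encodes CHOP, rose by 0.76 and 0.73 (adjusted p = 0.0136 and 0.0195) with cold, and Dele1, which relays mitochondrial stress to the integrated stress response, had 0.19 in Atf4WT (adjusted p = 0.223) and 0.35 in Atf4AKO (0.04). The Dele1 call was lost when any of 7 single libraries was left out: RT replicates 0 and 2 and cold replicates 1 and 2 of Atf4AKO, and RT replicate 1 and cold replicates 0 and 1 of Atf4WT (0.26 to 0.39, limma adjusted p = 0.0518 to 0.129). It was also lost in a limma fit of the Atf4AKO groups alone (adjusted p = 0.0854). The Ddit3 call in Atf4AKO was lost without RT replicate 0 of that genotype (0.69, adjusted p = 0.0658). Without both Atf4WT libraries with the most muscle reads, Ddit3 had 0.56 (adjusted p = 0.113) and Asns 0.67 (0.0603) in Atf4WT.

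Chaperones of other compartments and the respiratory chain give the scale. Over all 13404 genes, 2273 were called higher and 2000 lower in Atf4WT, and 1988 and 1479 in Atf4AKO. Of 15 chaperones of the endoplasmic reticulum, 2 were called higher and 5 lower in Atf4WT (median -0.15), and 2 and 8 in Atf4AKO (median -0.47). Of 16 cytosolic chaperones, 7 were higher and 1 lower in Atf4WT (median 0.23), and 5 and 1 in Atf4AKO (median 0.12). Of 82 subunits of oxidative phosphorylation, 61 were higher and 2 lower in Atf4WT (median 0.62), and 60 and 1 in Atf4AKO (median 0.64), beside medians of 0.60 and 0.66 for the 10 genes. These medians were not compared by a test.

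**Figure D5:**
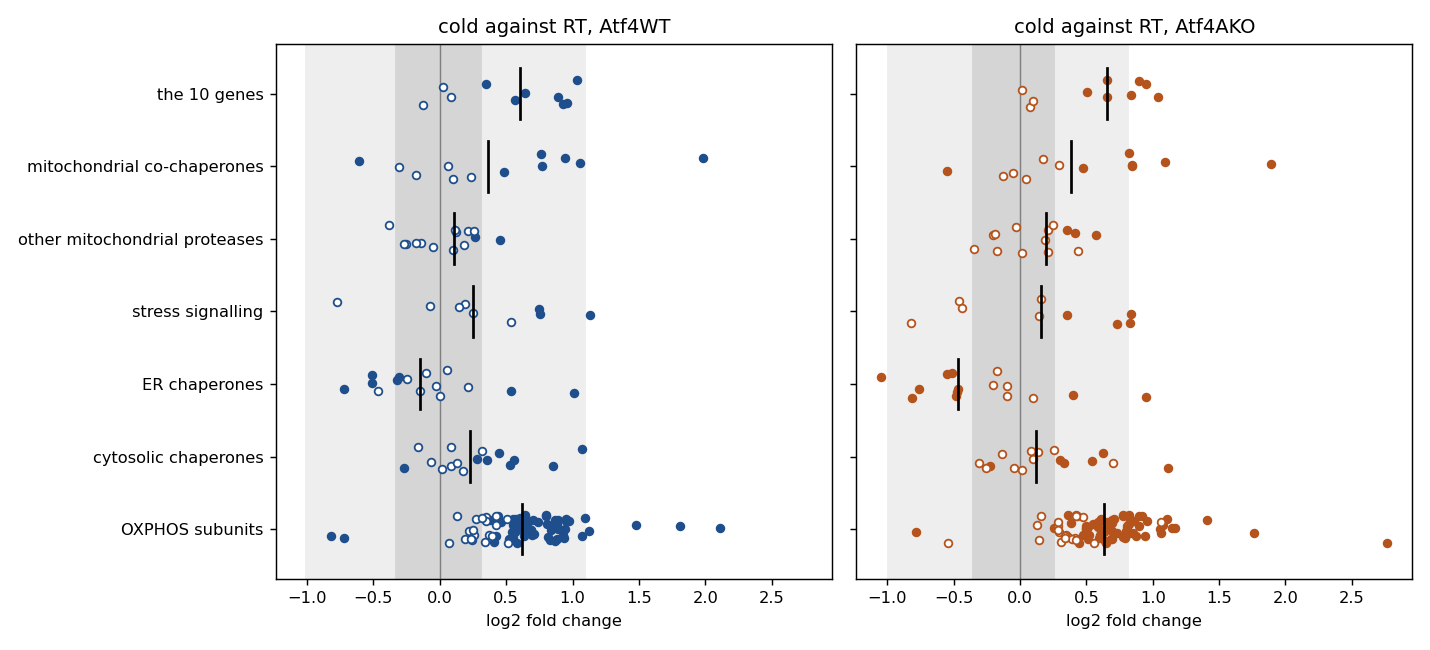
Log2 fold change between 24 h cold and RT (horizontal axis) of each gene in 7 lists (rows), in Atf4WT (left) and Atf4AKO (right), with filled points for genes at an adjusted p under 0.05, open points for the rest, and black lines for list medians. Dark shading spans the 25th to 75th and light shading the 5th to 95th percentile of all 13404 genes. The medians of the 10 genes (0.60 and 0.66) and of the oxidative phosphorylation subunits (0.62 and 0.64) lie to the right of the other lists.

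Across the 12 libraries, which share the cold contrast, Pearson's r with the log2 values of Hspd1 was 0.971 for Hspa9, 0.958 for Dnaja3, 0.955 for Hspe1, 0.954 for Afg3l2, 0.942 for Clpx and 0.906 for Clpp. It was 0.546 for Yme1l1, 0.375 for Lonp1 and 0.091 for Trap1. Dnaja3 and Afg3l2 had the highest r of any pair (0.988). Hspe1, its neighbour on the chromosome, ranked 147 of 13403 genes by likeness to Hspd1. The 5 genes most like Hspd1 were Sco1 (0.986), a copper chaperone of cytochrome c oxidase, Ccdc47 (0.986), Larp4 (0.984), Aifm1 (0.982), a flavoprotein of the intermembrane space, and Impa2 (0.98).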

How the data were processed

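PolyA RNA of iWAT was sequenced from strand-specific DNBSEQ libraries. The authors cleaned the reads (SOAPnuke), aligned them against mm10 (STAR) and kept unique alignments for gene counts (featureCounts). Versions and a strand setting are not given in the sources used here. The deposited values are counts divided by DESeq2 size factors (a signal in normalized counts, via pyDESeq2). Dividing each library by its smallest value gave whole reads for 100% of values (largest deviation 0.000313 reads, tolerance 0.01).

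Groups came from the labels. log2(normalized count + 1) was fitted with limma 3.58.1 (R 4.3.3; lmFit, eBayes with trend) on the 4 group means of all 12 libraries, for 13404 genes with a mean of at least 10; 755 genes were below it. P-values were two-sided and adjusted by Benjamini-Hochberg. They measure the spread between 3 biological replicates a group, pooled over all 4 groups and drawn towards a trend over all genes. Fold changes are on this log2 scale. The study applied its own rule to pyDESeq2 values, whereas here it was applied to the limma values. Alternatives were pseudocounts 0.5 and 5, no filter or a mean of 50, 75th percentile scaling, array weights, only the groups compared, a replicate block, a lymphocyte score, each library left out, the study's rule (fold over 1.5 and unadjusted p under 0.05), and edgeR 4.0.16 and DESeq2 1.42.0 on the recovered reads. The fit was tested on simulated counts: for cold against RT in Atf4WT, 13 of 100 genes changed 1.5-fold and 62 of 100 changed 2-fold were called, with 4 of 13203 unchanged genes. No other genes were changed in the simulation, whereas in the data 2273 genes were called higher and 2000 lower in this comparison. The adjustment is stricter when fewer genes change, so the simulated shares do not give the sensitivity of the reported fit.

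Named were all 10 genes, the 4 genes with the smallest p in Atf4WT of the co-chaperone and protease lists, genes called between genotypes, any stress signalling gene, Atf4, Ucp1, and the 5 genes most like Hspd1. The genes and lists were chosen with earlier results of these data known. Gene positions and lengths came from GENCODE M21 and promoters from RefSeq (GRCm38.p6). Of the listed markers, 1 of 7 for epithelium (highest 37 normalized counts), 5 of 5 for endothelium (14514 to 19239 summed), 5 of 6 for macrophages (3619 to 30137) and 6 of 6 for proliferating cells (117 to 1175) were present.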

Additional observations from a re-analysis of the deposited data

How the results depend on the processing

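The 7 genes called higher after cold in each genotype kept their direction in all 24 alternative fits, and 5 of them in Atf4WT and 7 in Atf4AKO kept their calls in each of these fits. The exceptions in Atf4WT were Clpx, called in 17 of the 24, and Clpp, called in 23. By the study's rule 5 genes were called in Atf4WT and 6 in Atf4AKO, since the folds of Clpx in both genotypes and Clpp in Atf4WT were under 1.5. No gene of the 10 was called between genotypes, or for the difference of responses, in any alternative. The labels do not say whether replicate numbers pair the libraries. For the deviations of same-numbered libraries, r ran from -0.189 to 0.389 (median 0.0965) and was over 0.1 for 8 of 18 pairs. For other pairs of libraries from different groups it ran from -0.475 to 0.312 (median -0.043). Pairs among the libraries of replicate 1 were all positive (0.179 to 0.389), and whether they share a batch was not tested. With a replicate block the counts were 7 and 7 of the 10 genes, and the block changed no call among them.

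Signs changed only where a difference was not called. With the lymphocyte score as a covariate, the log2 difference between genotypes after cold was -0.23 for Hspd1, -0.22 for Hspe1, -0.54 for Hspa9, -0.22 for Lonp1, -0.25 for Clpp, -0.18 for Clpx, -0.095 for Trap1, -0.17 for Afg3l2 and -0.23 for Dnaja3. The difference of responses was then -0.35 for Hspd1, -0.32 for Clpp, -0.20 for Clpx, -0.13 for Trap1, -0.054 for Yme1l1, -0.23 for Afg3l2 and -0.32 for Dnaja3, and the cold response of Trap1 was 0.11 in Atf4WT and -0.022 in Atf4AKO. With 75th percentile scaling the difference of responses was -0.016 for Hspd1 and -0.028 for Dnaja3, and the cold response of Trap1 in Atf4AKO was -0.044. With array weights the difference of responses of Hspa9 was 0.02, the genotype difference was -0.003 for Lonp1 after cold and -0.003 for Clpx at RT, and the cold response of Yme1l1 in Atf4WT was -0.048. With edgeR the difference of responses of Lonp1 was 0.005. The causes were not tested.

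With libraries left out, the genotype difference at RT ranged from -0.039 to 0.16 for Afg3l2, -0.054 to 0.099 for Clpx, -0.034 to 0.23 for Hspa9, -0.035 to 0.12 for Lonp1 and -0.02 to 0.098 for Trap1. After cold it ranged from -0.025 to 0.16 for Hspa9, -0.073 to 0.21 for Hspe1 and -0.028 to 0.13 for Lonp1. The difference of responses ranged from -0.003 to 0.20 for Afg3l2, -0.035 to 0.22 for Clpp, -0.097 to 0.12 for Dnaja3, -0.18 to 0.13 for Hspa9, -0.074 to 0.14 for Hspd1, -0.28 to 0.029 for Hspe1, -0.090 to 0.092 for Lonp1 and -0.021 to 0.18 for Yme1l1. The cold response ranged from -0.037 to 0.092 for Trap1 in Atf4AKO and -0.078 to 0.12 for Yme1l1 in Atf4WT. These ranges include the fit without Atf4WT RT replicate 2 and Atf4WT cold replicate 0. Depth did not limit the 10 genes, each with at least 1694 reads in every library.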
